A study of Mus musculus with 8 samples.

Results

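The 8 genes described here encode contents of the primary (azurophil) granule of myeloid cells, or proteins that carry, regulate or accompany them. They were taken by symbol, and all 8 were found among the 39179 gene IDs of each library. Mpo, Elane, Prtn3 and Ctsg encode granule enzymes, Srgn encodes their proteoglycan carrier, Cst7 and Serpinb1a encode protease inhibitors, and Ms4a3 encodes a membrane protein of granulocyte and monocyte progenitors. The genes were selected on their expression values in these same libraries, as granule enzymes to be set against their carrier and inhibitors, so their differences between the groups are a description and carry no p-value.

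The measurement was stranded sequencing of total RNA from common lymphoid progenitors (CLPs) of C57BL/6 mice, bone marrow cells that feed the lymphoid lineages. The ex vivo CLP group (4 libraries) was sorted fresh from marrow, and the cCLP group (4 libraries) was sorted after 2 months of culture on OP9 stromal cells with Flt3L and low IL-7. Both sorts selected cells without lineage markers or Ly6d that carried Flk2, IL7R and CD27. Ages, the number of animals and the number of cultures are not given in the sources used here, so p-values measure the spread between these libraries, which may be technical.

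The primary granule is made at the promyelocyte stage, when myeloid precursors transcribe these genes at their highest rate, and its contents help neutrophils kill and digest microbes. The serine proteases neutrophil elastase, proteinase 3 and cathepsin G are made as inactive precursors, are trimmed by dipeptidyl peptidase I and are held in the granule on the sulphated chains of serglycin. Myeloperoxidase is a haem enzyme that makes hypochlorous acid. Early progenitors can carry Mpo RNA before they are committed to a myeloid fate.

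The deposited value of each gene was a whole number on a scale that no label names, and depth is unknown. Values below are scaled values, which are deposited values divided by a library factor. Values summed to between 378594 and 704305 per library. Ex vivo CLP 2 and cCLP 1 each lay with the group opposite to their label. Whether these 2 labels were exchanged cannot be told from the sources used here, no library was moved, and every value over all 8 libraries rests on the labels as given. Over 6479 tested genes other than the members, Spearman's rho of ex vivo CLP 2 was 0.740 to 0.802 with the rest of its labelled group and 0.959 to 0.986 with cCLP 2 to 4. For cCLP 1 it was 0.783 to 0.795 with cCLP 2 to 4 and 0.947 to 0.979 with ex vivo CLP 1, 3 and 4. Every result is therefore given over all 8 libraries as labelled and over 6, ex vivo CLP 1, 3 and 4 against cCLP 2 to 4, a choice made after the data were seen. Flt3, the gene of the sort marker Flk2, stood at 209 to 283 in all 8 libraries. Il7r was at 74.7, 17.4 and 17.4 in ex vivo libraries 1, 3 and 4, 26.8 in cCLP 1, and 196 to 224 elsewhere. Ly6d, whose product was sorted against, was at 21.0 to 34.7 in ex vivo CLP 1, 3 and 4 and cCLP 1, and at 1.05 or less in the other 4 libraries.

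Ctsg, Elane, Prtn3 and Ms4a3 were almost or wholly unlisted in ex vivo library 2 and cCLP 2 to 4, while Mpo, the carrier gene and both inhibitor genes were listed in every library. Cathepsin G is a serine protease with chymotrypsin-like cutting. Ctsg (ENSMUSG00000040314, GRCm38 chromosome 14, 56099881 to 56102574, minus strand) had scaled values of 173, 0, 568 and 479 in the ex vivo libraries 1 to 4, and 339, 0, 0 and 0 in cCLP 1 to 4. The labelled groups overlapped, because the library at 0 among the ex vivo libraries and the library at 339 among the cCLPs each lay with the other group. With all 8 libraries Ctsg averaged 305 ± 265 (SD, n = 4) in the ex vivo libraries and 84.6 ± 169 (n = 4) in cCLPs. In the 6-library comparison the ex vivo mean was 407 ± 208 (n = 3), and no fold change is given because cCLP 2 to 4 were listed at 0. In bulk RNA, fewer cells of a type and less RNA per cell cannot be told apart.

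Elane and Prtn3 encode neutrophil elastase and proteinase 3, and the pair lies side by side on chromosome 10. Elane (ENSMUSG00000020125, 79886247 to 79888215, plus strand) stood at 11, 0, 391 and 382 in the ex vivo libraries 1 to 4, and at 38.3, 0, 0 and 0 in cCLP 1 to 4. Among the libraries that listed it, ex vivo libraries 3 and 4 were thus high and ex vivo library 1 and cCLP 1 were low. Prtn3 (ENSMUSG00000057729, 79874476 to 79883174, plus strand) was at 57.5, 1.11, 209.6 and 296 in the ex vivo libraries 1 to 4, and at 175, 1.05, 0.960 and 0.849 in cCLP 1 to 4. It was listed at 1 before scaling in each of ex vivo library 2 and cCLP 2 to 4. Prtn3 averaged, over the 6 libraries, 188 ± 121 (SD, n = 3) in the ex vivo libraries and 0.954 ± 0.102 in cCLPs. Its log2 fold change was -6.30 ± 0.55 (SE) on the scale of log2(scaled value + 1), where the added 1 makes the change smaller than the ratio of the means, and the small SD in cCLPs reflects only the library factors. With all 8 libraries it was -3.13 ± 1.98 for Prtn3, -3.87 ± 2.13 for Elane and -4.27 ± 2.59 for Ctsg.

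Mpo kept a substantial level in all libraries. Mpo (ENSMUSG00000009350, chromosome 11, 87793581 to 87804413, plus strand) was at 369.7, 159, 923 and 984 in the ex vivo libraries 1 to 4, and at 753, 258, 273 and 288 in cCLP 1 to 4. The 4 libraries with Ctsg listed at 0 had Mpo at 159 to 288, below the lowest of the other 4. Mpo averaged, over the 6 libraries, 759 ± 338 (SD, n = 3) and 273 ± 14.9, a log2 fold change of -1.35 ± 0.34 (SE), or 2.55-fold lower in cCLPs. Over the 8 libraries the log2 fold change was -0.45 ± 0.62, with overlapping groups.

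Ms4a3 (ENSMUSG00000024681, chromosome 19, 11629496 to 11640851, minus strand) was at 2.45, 0, 81.9 and 69.0 in the ex vivo libraries 1 to 4, and at 5.74, 0, 0 and 0 in cCLP 1 to 4. As with Elane, the values were high in ex vivo libraries 3 and 4 and low in ex vivo library 1 and cCLP 1. The gene did not reach the minimum for the model fit, a scaled value of 10 or more in a number of libraries equal to the size of the smaller group.

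**Figure D1:**
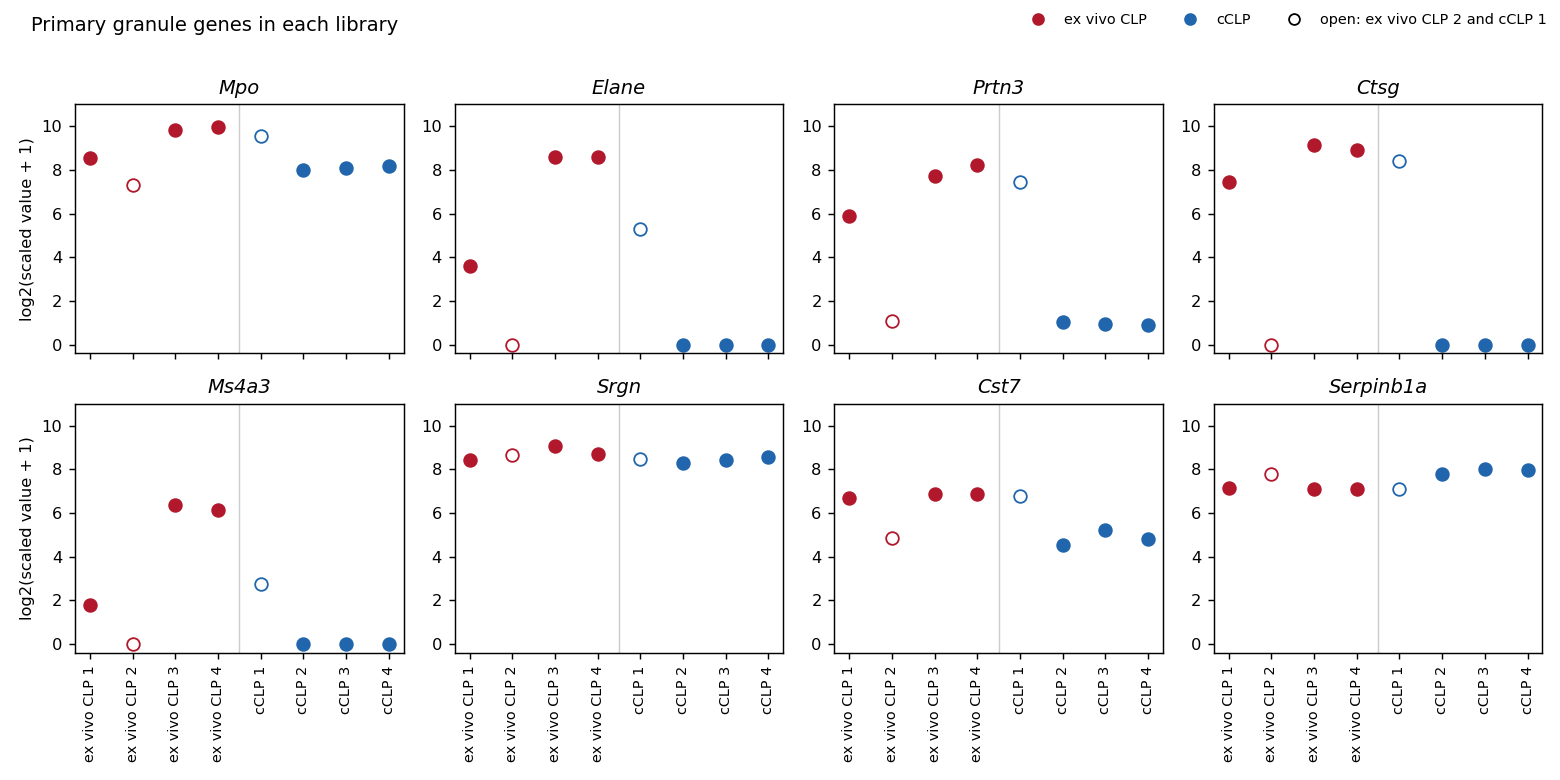
Scaled value of each granule gene in each library, as log2(scaled value + 1), with red points for ex vivo CLP and blue points for cCLP. Open points mark ex vivo CLP 2 and cCLP 1. Elane, Ctsg and Ms4a3, in ex vivo CLP 2 and in cCLP 2 to 4, are at 0, while Srgn stays between 315 and 541 in all 8 libraries.

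The carrier and the inhibitors did not share one pattern. Srgn (ENSMUSG00000020077, chromosome 10, 62493833 to 62527451, minus strand), which encodes the serglycin core protein, was at 342, 400.2, 541 and 418 in the ex vivo libraries 1 to 4, and at 353, 315, 344 and 383 in cCLP 1 to 4. The groups overlapped in both comparisons. The log2 fold change was -0.27 ± 0.14 (SE) over the 8 libraries and -0.30 ± 0.18 over the 6, with a 95% confidence interval of -0.71 to 0.11 over the 6.

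Cst7 encodes cystatin F, an inhibitor of cysteine cathepsins that is taken into granules and lysosomes. Cst7 (ENSMUSG00000068129, chromosome 2, 150570415 to 150578944, plus strand) was at 103, 27.6, 117 and 116 in the ex vivo libraries 1 to 4, and at 108, 22.1, 36.5 and 27.2 in cCLP 1 to 4. It was low in the same 4 libraries that listed Ctsg at 0, but it was never absent. Cst7 averaged, over the 6 libraries, 112 ± 7.84 (SD, n = 3) and 28.6 ± 7.30, a log2 fold change of -1.96 ± 0.17 (SE), or 3.89-fold lower. With all 8 the log2 fold change was -0.99 ± 0.61.

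Serpinb1a was the member that was higher in cCLPs. It encodes a cytosolic serpin that blocks elastase, proteinase 3 and cathepsin G that leak from granules. Serpinb1a (ENSMUSG00000044734, chromosome 13, 32842092 to 32851185, minus strand) was at 138, 218, 138 and 138 in the ex vivo libraries 1 to 4, and at 135, 222, 254 and 247 in cCLP 1 to 4. Its 4 highest libraries were ex vivo library 2 and cCLP 2 to 4, where Ctsg was listed at 0. The 6-library means were 138 ± 0.329 (SD, n = 3) and 241 ± 16.9, a log2 fold change of 0.80 ± 0.10 (SE), or 1.74-fold higher. The log2 fold change over the 8 libraries was 0.43 ± 0.24. The close paralogs Serpinb1b and Serpinb1c were listed at 0 in every library.

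Over the 8 libraries limma called 0 of the 7 members in the fit, where 0% of 6486 genes were called at adjusted p below 0.05 and 480 genes had an unadjusted p below 0.05. None of the 8 members had groups that did not overlap, against 3.47% of all genes tested (1.6% lower and 1.87% higher in cCLPs). Over the 6 libraries 5 members were called lower and 1 higher of the 7 in the fit, beside 43.1% of 6573 genes called in either direction (22.2% lower and 20.8% higher). The groups did not overlap for 7 of the 8 members, 6 lower and 1 higher, beside 55.7% of all genes tested (28.1% lower and 27.6% higher). Elane, Ctsg and Prtn3 entered the fit only through their ex vivo values, and Srgn was the member not called. Leaving out 1 library changed these counts: Mpo was not called without ex vivo library 3 or without cCLP 2, and Srgn was called lower without ex vivo library 1. Ms4a3 entered the fit, only through its ex vivo values, without ex vivo library 1, cCLP 2, cCLP 3 or cCLP 4. It was called lower in each of these cases but the one without cCLP 2, and also when no filter on low values was set.

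**Figure D2:**
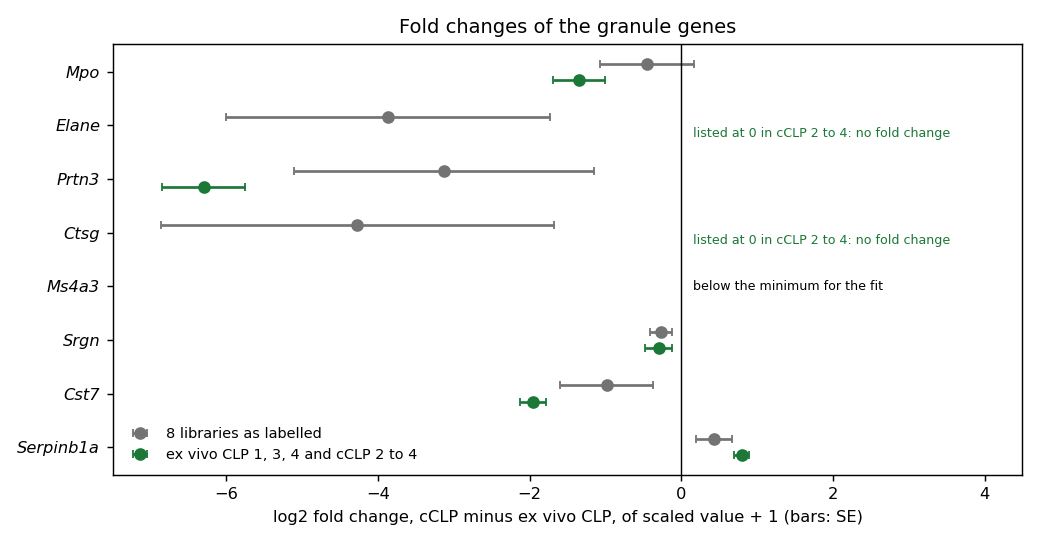
Log2 fold change (cCLP minus ex vivo CLP, of scaled value + 1) with its SE for the granule genes that have one, in grey over the 8 libraries as labelled and in green over ex vivo CLP 1, 3 and 4 and cCLP 2 to 4. Serpinb1a lies to the right of 0 in both, and Srgn lies near 0 at -0.27 and -0.30.

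The enzymes were next set against their carrier inside each library, which removes the library factor. The value of Mpo per 100 of Srgn was 108, 39.8, 171 and 235 in the ex vivo libraries 1 to 4, and 213, 81.9, 79.3 and 75.2 in cCLP 1 to 4. For Ctsg it was 50.5, 0, 105 and 115 in the ex vivo libraries 1 to 4, and 95.9 in cCLP 1, with 0 in cCLP 2 to 4. Elane per 100 of Srgn was 3.23, 0, 72.2 and 91.3 in ex vivo libraries 1 to 4, and 10.8 in cCLP 1. Srgn itself was at 315 to 400.2 in the 4 libraries with Ctsg at 0 and at 342 to 541 in the others, so the spread of these ratios lay mostly in the enzyme values. The difference of the groups' mean log2 ratios to Srgn was -0.18 for Mpo over the 8 libraries, and its sign turned without ex vivo library 3 (0.0079) or ex vivo library 4 (0.16). Over the 6 libraries it was -1.05 for Mpo and -6.00 for Prtn3.

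The same was done against the serpin gene, which differed in the opposite direction from the enzymes. Mpo per 100 of Serpinb1a was 267, 73.1, 670.3 and 713 in the ex vivo libraries 1 to 4, and 558, 116, 107 and 116 in cCLP 1 to 4. Prtn3 per 100 of Serpinb1a was 41.6, 0.508, 152 and 214 in ex vivo libraries 1 to 4, and 129.8, 0.474, 0.377 and 0.344 in cCLP 1 to 4. These ratios compare libraries, not the abundance of one gene with another, because the scale of the values across genes is not known.

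**Figure D3:**
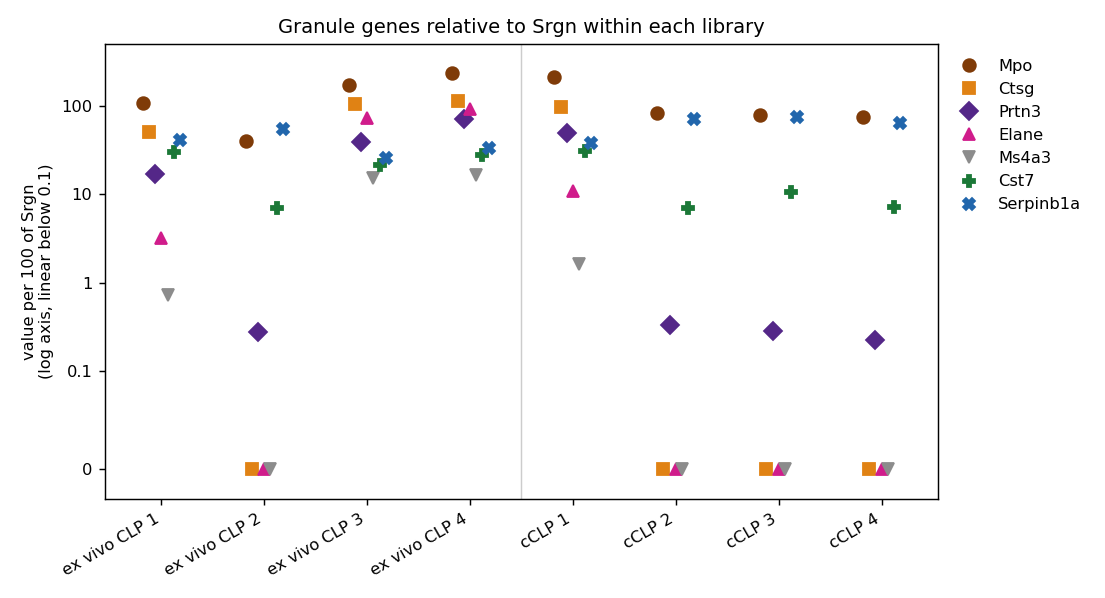
Value of each gene per 100 of Srgn in each library, on a log axis that is linear below 0.1. Ctsg, Elane and Ms4a3 sit at 0 in 4 libraries, ex vivo CLP 2 and cCLP 2 to 4, and Mpo sits between 39.8 and 235 in all libraries.

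The members also differed in how far they spread within ex vivo libraries 1, 3 and 4. The highest of these libraries exceeded the lowest 35.5-fold for Elane, 33.4-fold for Ms4a3, 5.14-fold for Prtn3, 3.29-fold for Ctsg and 2.66-fold for Mpo. The ratio was 1.58 for Srgn, 1.13 for Cst7 and 1.00 for Serpinb1a, and the median over 6573 tested genes was 1.26 on the scale of scaled value + 1. On that scale 0 tested genes had a wider range than Elane, 8 had a wider range than Prtn3, 37 than Ctsg and 91 than Mpo. In all 5 of the widely spread members ex vivo library 1 was the lowest of these libraries. Relative to Mpo in the same library, Elane was at 2.98 per 100 in ex vivo library 1 and 5.08 in cCLP 1, against 42.3 and 38.8 in ex vivo libraries 3 and 4. Ctsg per 100 of Mpo varied less, at 46.7, 61.6 and 48.7 in ex vivo libraries 1, 3 and 4 and 45.0 in cCLP 1. The low Elane of ex vivo library 1 and cCLP 1 was therefore not matched by an equally low Ctsg.

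Markers of other cells were read in the same libraries. The summed level of 9 neutrophil markers was 646, 857 and 668 in ex vivo libraries 1, 3 and 4, 220 in cCLP 1, and 0.849 to 1.11 in ex vivo library 2 and cCLP 2 to 4, where 8 of the 9 were at 0. S100a8, an abundant calcium-binding protein gene of maturing neutrophils, was at 234, 299 and 214 in ex vivo libraries 1, 3 and 4 and at 60.3 in cCLP 1. Ngp, a secondary granule protein gene, was at 35.5, 53.3 and 61.0 in the same ex vivo libraries and at 15.3 in cCLP 1. Among these libraries, cCLP 1 was the lowest for every gene of the list but Csf3r. Csf3r was at 26.9, 34.7 and 36.3 in ex vivo libraries 1, 3 and 4 and at 35.4 in cCLP 1. The mast cell and basophil list (11 genes) summed to 26.9, 120 and 104 in ex vivo libraries 1, 3 and 4 and 30.6 in cCLP 1, and all 11 genes were at 0 in ex vivo library 2 and cCLP 2 to 4. The list's basophil protease gene Prss34 was at 4.90, 48.4 and 43.6 in ex vivo libraries 1, 3 and 4 and 4.78 in cCLP 1. Mcpt8, Ms4a2, Fcer1a and Hdc were likewise lower in ex vivo library 1 and cCLP 1 than in ex vivo libraries 3 and 4. Cpa3 and Gata2 did not share this pattern. In ex vivo libraries 1, 3 and 4 and cCLP 1, Cpa3 was at 9.79, 12.4, 9.44 and 8.61, and Gata2 at 1.22, 4.96, 6.54 and 4.78. The eosinophil list (8 genes) summed to 6.12, 19.8 and 21.8 and to 4.78 in the same libraries, and to 1.92 or less elsewhere. Its defining gene Epx was only at 1.24 and 1.45 in ex vivo libraries 3 and 4, and at 0 in all other libraries. Prg2 was the largest part of the sum in ex vivo libraries 1, 3 and 4, at 3.67, 14.9 and 16.0, and was at 1.91 in cCLP 1.

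The monocyte and macrophage list (11 genes) summed to 343, 883 and 771 in ex vivo libraries 1, 3 and 4, 482 in cCLP 1, and 24.3 to 102 in the other 4 libraries. Dntt, the terminal transferase gene of lymphoid progenitors, was at 2294 in ex vivo library 1, 1338 in cCLP 1 and 1075 and 875 in ex vivo libraries 3 and 4, and, like Elane, was lower in ex vivo library 2 (200.1) and cCLP 2 to 4 (86.3 to 255.4). Rag2, a recombinase gene of the same list, was at 20.8, 4.96 and 3.63 in ex vivo libraries 1, 3 and 4, 7.65 in cCLP 1 and 75.8 to 97.3 in the other 4. The summed lymphoid progenitor list (11 genes) was 2857 in ex vivo library 1, 1767 in cCLP 1, 1475 and 1273 in ex vivo libraries 3 and 4 and 1067 to 1294 in the other 4, with Dntt the main part of the sum in the first 4. The dendritic cell list (10 genes) summed to 693, 742 and 763 in the same ex vivo libraries, 677 in cCLP 1 and 490 to 589 in the other 4, and the stem and multipotent progenitor list (10 genes) to 929, 1139 and 965, to 1016 and to 230 to 271. The cytotoxic lymphocyte list (9 genes), with Gzmb and Prf1 at 1.45 or less, summed to 67.3, 68.2 and 79.2, to 66.9 and to 35.8 to 49.2. The erythroid and megakaryocyte list (11 genes) summed to 13.5, 55.8 and 44.3, to 21.0 and to 11.1 to 12.5, so it too was higher in ex vivo libraries 3 and 4 than in 1. Some of these sums hide changes in opposite directions over the 6 libraries, where 22.2% of all tested genes were called lower and 20.8% higher. Of 9 tested dendritic genes 7 were called lower and 1, Ccr9, higher (6.38 ± 2.11 to 242 ± 15.2), and 7 were tested only through 1 group. Of 7 tested monocyte and macrophage genes 5 were called lower and 1, Mrc1, higher, and 5 were tested only through 1 group. The part of these other cell types in the members' values was not tested. In the stromal list 7 or 8 of 10 genes were at 0 in each library, Col1a1 among them, and the sum was at most 18.9.

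**Figure D4:**
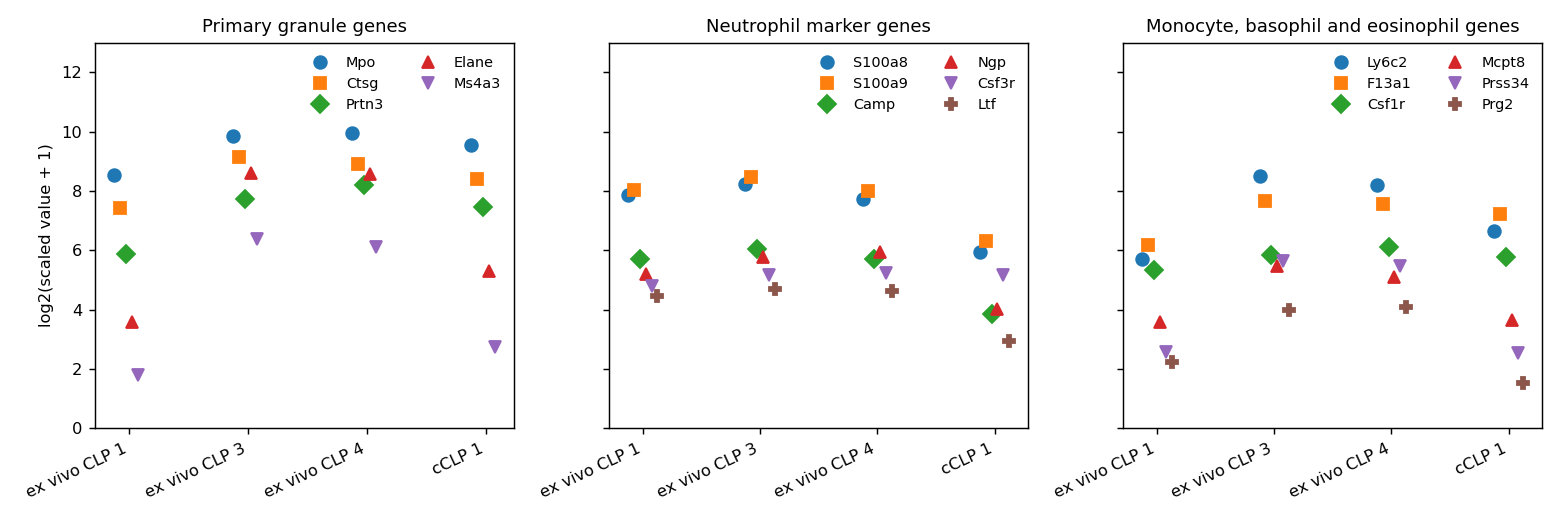
Scaled values, as log2(scaled value + 1), of granule genes, neutrophil markers, and monocyte, basophil and eosinophil genes in ex vivo CLP 1, 3 and 4 and cCLP 1. Elane and Ms4a3 are low in ex vivo CLP 1 and cCLP 1, as is Prss34 at 4.90 and 4.78. S100a8 is at 234 in ex vivo CLP 1 and 60.3 in cCLP 1, and Ngp is at 35.5 and 15.3. Csf3r is at 26.9 in ex vivo CLP 1 and 35.4 in cCLP 1.

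Among all other tested genes, those with the most alike pattern were found by the root mean square difference of log2(scaled value + 1), centred on each gene's mean over the 8 libraries, where 0 is an identical shape. Prtn3 was closest to F13a1, which encodes the A chain of clotting factor XIII (0.26), and Elane was also closest to F13a1, but far from it (1.17). F13a1 was at 72.2, 202 and 189 in ex vivo libraries 1, 3 and 4 and 147 in cCLP 1. Ctsg was closest to Ly86, an accessory gene of a Toll-like receptor relative (0.53), and Ms4a3 to Ly6c2, a surface protein gene of monocytes (0.74), and Mcpt8, a basophil protease gene (0.85). Mpo was closest to the immediate early gene Junb (0.17). Srgn lay 0.06 from Ngdn and Serpinb1a 0.06 from Prkch. Cst7 lay 0.08 from Ccdc90b, which was at 23.3 to 28.5 in ex vivo libraries 1, 3 and 4 and at 4.21 to 8.64 in cCLP 2 to 4.

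Genes that start within 100 kb of a member were read next. Around Elane, 15 protein-coding genes started in this window, and 10 were tested over the 6 libraries, of which 4, Prtn3 among them, were called lower in cCLPs and 1 was called higher, beside 22.2% and 20.8% of all tested genes. Next to Prtn3, the lower genes were Plppr3, Palm and Prss57. Prss57, a granule serine protease gene, was at 25.7, 34.7 and 27.6 in ex vivo libraries 1, 3 and 4, 24.9 in cCLP 1 and 6.32 to 9.60 in the other 4, and it entered the fit only through the ex vivo libraries. Plppr3, a lipid phosphatase-related gene, starts 158 bases from the annotated Prtn3 start on the other strand and overlaps it. Its values were 41.6, 71.9 and 67.5 in ex vivo libraries 1, 3 and 4, 64.1 in cCLP 1, 13.3 in ex vivo library 2 and 12.6, 15.4 and 15.3 in cCLP 2 to 4 (log2 fold change -1.96 ± 0.20, limma adjusted p = 0.000153). Whether the authors counted by strand is not given in the sources used here, so reads of Plppr3 and Prtn3 cannot be told apart where the 2 overlap. Ptbp1, Med16, R3hdm4, Wdr18 and Tmem259 were not called, and Arid3a, at 4.96 to 6.54 in ex vivo libraries 1, 3 and 4 and 10.53 to 13.4 in cCLP 2 to 4, entered the fit only through the cCLP libraries.

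Near Ctsg, 1 of 9 neighbours was listed above 0. It was Mcpt8, at 11, 43.4 and 33.4 in ex vivo libraries 1, 3 and 4, 11.5 in cCLP 1 and 0 in the other 4 libraries. Around Ms4a3 none of 5 neighbours reached the minimum for the fit, and Ms4a2 was at 2.18 or less. Around Srgn 1 of 3 tested neighbours, Vps26a, was higher, around Cst7 both tested neighbours were lower, and the single tested neighbours of Mpo and Serpinb1a were not called.

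**Figure D5:**
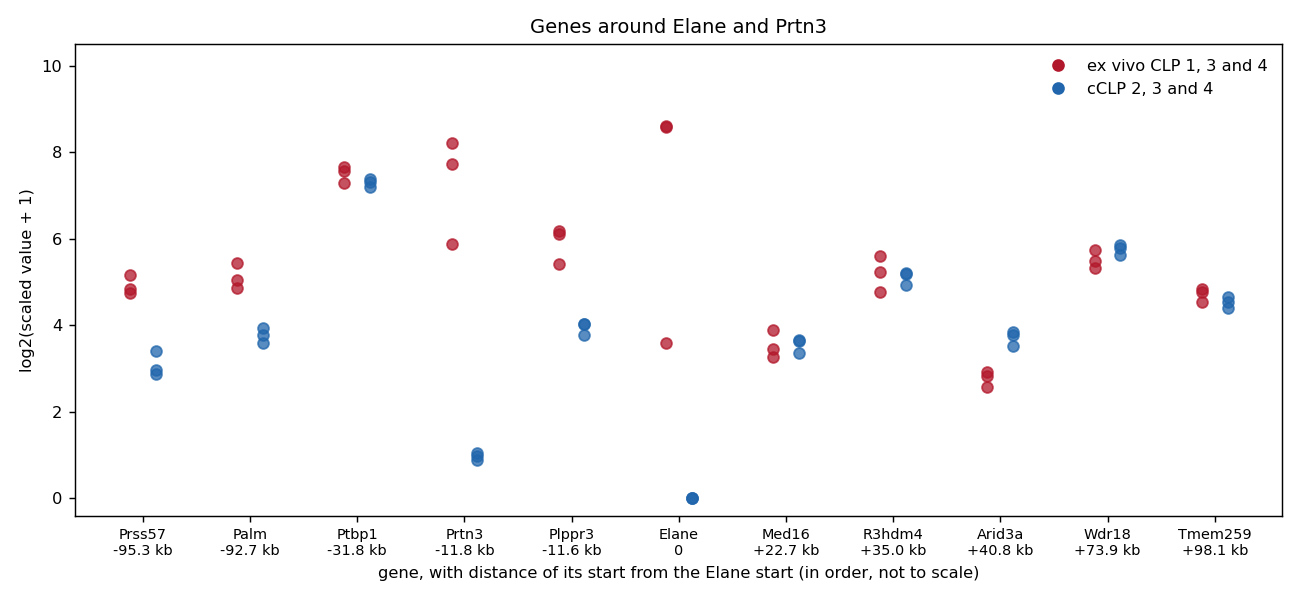
Genes within 100 kb of the Elane start, in order along the chromosome, with the distance of each start in kb; points are log2(scaled value + 1) in ex vivo CLP 1, 3 and 4 (red) and cCLP 2 to 4 (blue). Elane and Prtn3 lie at or near the bottom in cCLP 2 to 4, at scaled values of 0 and 0.849 to 1.05, while their neighbour Ptbp1 is near the same level in both.

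The sequence before each start site was then read from RefSeq promoters on GRCm38.p6, which held 7 of the 8 members. Shown are the 250 bases before the RefSeq start of the 4 enzyme genes, whose values went in the same direction. Beside them is 1 of the 2 entries of Srgn, whose groups overlapped. Capitals mark, on either strand, the letters GAGGAA (the core read by PU.1, encoded by Spi1), AACTG or AACGG (MYB), TGTGGT (RUNX) and TTGCNNAA (C/EBP). The windows lie at chr11:87793534-87793783 for Mpo, chr10:79886062-79886311 for Elane, chr10:79879417-79879666 for Prtn3, all on the plus strand, and chr14:56102575-56102824 for Ctsg and chr10:62527446-62527695 for Srgn, both on the minus strand. The RefSeq starts of Mpo, Elane and Prtn3 used here, and by a few bases that of Srgn, lie downstream of the GENCODE starts given above. Part of the Mpo, Elane and Srgn windows and all of the Prtn3 window therefore lie inside the annotated gene. Distances are counted from the RefSeq start.
Mpo: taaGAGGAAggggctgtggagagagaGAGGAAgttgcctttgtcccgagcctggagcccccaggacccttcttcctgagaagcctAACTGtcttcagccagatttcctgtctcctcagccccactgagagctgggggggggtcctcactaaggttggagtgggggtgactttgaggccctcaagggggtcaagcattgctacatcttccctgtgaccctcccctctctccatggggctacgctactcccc
Elane: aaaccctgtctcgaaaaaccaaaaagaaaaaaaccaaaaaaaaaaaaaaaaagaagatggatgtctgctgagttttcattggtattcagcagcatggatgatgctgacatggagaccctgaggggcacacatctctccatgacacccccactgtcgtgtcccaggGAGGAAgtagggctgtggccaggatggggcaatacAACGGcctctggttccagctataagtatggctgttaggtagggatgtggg
Prtn3: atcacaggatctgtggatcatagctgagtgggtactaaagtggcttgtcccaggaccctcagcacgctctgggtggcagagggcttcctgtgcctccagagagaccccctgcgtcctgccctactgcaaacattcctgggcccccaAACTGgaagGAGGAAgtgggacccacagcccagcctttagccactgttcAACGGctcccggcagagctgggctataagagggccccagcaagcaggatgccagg
Ctsg: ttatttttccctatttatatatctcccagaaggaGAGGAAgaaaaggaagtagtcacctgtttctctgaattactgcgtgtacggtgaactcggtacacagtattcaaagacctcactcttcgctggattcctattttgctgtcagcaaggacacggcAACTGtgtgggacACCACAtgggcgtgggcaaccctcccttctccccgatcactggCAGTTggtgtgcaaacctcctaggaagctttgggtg
Srgn: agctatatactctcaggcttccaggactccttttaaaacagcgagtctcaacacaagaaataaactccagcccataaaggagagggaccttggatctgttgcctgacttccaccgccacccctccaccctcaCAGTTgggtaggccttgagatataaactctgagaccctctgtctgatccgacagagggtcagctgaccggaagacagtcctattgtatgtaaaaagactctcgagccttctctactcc

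All 4 enzyme genes held GAGGAA on the member's strand in this window. It began 247 and 224 bases before the RefSeq start in Mpo, 85 in Elane, 95 in Prtn3 and 216 in Ctsg. The same letters were found in 28.3% of 32851 promoter windows of 300 bases. GAGGAA was not among the letters of either Srgn entry or of Cst7, and in Ms4a3 it lay 35 bases after the start. AACTG or AACGG was found in all 4 enzyme genes, and AACTG was also in both Srgn entries and in Cst7. Of all windows 44.8% held AACTG and 17.4% held AACGG, while the share that held either was not counted. TGTGGT was found in Ctsg, in 1 of the 2 Srgn entries, the one not shown, and in Cst7 (16.8% of windows). TTGCNNAA was found in none of the 4 enzymes and in Cst7 and Ms4a3 (10.8% of windows). A match is a description of letters and not a bound site.

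Genes of factors known to act at granule gene promoters were read from a list of 12. Over the 6 libraries 6 of 8 tested regulators fell and 1 rose (median log2 fold change -0.75, against 0.00 over all tested genes). Of all tested genes 22.2% were called lower and 20.8% higher, which is the background for this list and those below. Of the 8 regulators 3 entered only through 1 group. Spi1 was present in both groups, at 66.7 ± 19.8 (SD, n = 3) and 37.4 ± 3.19 (log2 fold change -0.78 ± 0.22, limma adjusted p = 0.0212). That call ended without ex vivo library 3 (0.0665), ex vivo library 4 (0.0675), cCLP 2 (0.0786) or cCLP 4 (0.0546). Cebpa, a driver of granulocyte fate, was at 22.3 ± 8.80 and 1.27 ± 0.569 and below 10 in each of cCLP 2 to 4. Myb, a progenitor factor that acts on Mpo and Elane, rose from 260.0 ± 38.0 to 475 ± 40.4 (0.87 ± 0.14, limma adjusted p = 0.00149). Irf8, a monocyte and dendritic cell factor, was at 144, 144 and 182 in ex vivo libraries 1, 3 and 4, 146 in cCLP 1 and 3.32 to 6.72 in the other 4, and it entered the fit only through the ex vivo libraries. The late granulocytic factor gene Cebpe was below the minimum for the fit. It was at 0, 3.72 and 2.91 in ex vivo libraries 1, 3 and 4, 0.956 in cCLP 1 and 0 in ex vivo library 2 and cCLP 2 to 4. Jun fell (-1.26 ± 0.33, limma adjusted p = 0.0165), not without ex vivo library 3 (0.0764) or cCLP 2 (0.0731). Cbfb fell (-0.34 ± 0.11, limma adjusted p = 0.0318), and this call was lost without ex vivo library 1 (0.0559), ex vivo library 3 (0.0708), cCLP 2 (0.104) or cCLP 3 (0.122).

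Of 13 other primary granule genes 10 were tested, 5 fell, 2 rose and 3 were not called (median -0.30), beside 43.1% called in either direction over all tested genes, and 3 passed only through the ex vivo libraries. Lyz2, the lysozyme gene, was at 147, 212 and 175 in ex vivo libraries 1, 3 and 4 and at 6.32 to 9.60 in cCLP 2 to 4. The glycosidase gene Gusb rose from 28.9 ± 6.29 (SD, n = 3) to 48.9 ± 4.34 (0.76 ± 0.16, limma adjusted p = 0.00624), and Man2b1, another glycosidase gene, rose as well (0.47 ± 0.09, adjusted p = 0.00394). The aspartic protease gene Ctsd was at 200.4 ± 29.5 and 177 ± 18.9 and was not called.

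Of 14 genes for the folding, trimming and transport of granule enzymes, 13 were tested, 4 fell, 2 rose and 7 were not called (median 0.10). Ctsc, which encodes dipeptidyl peptidase I, the activator of the serine proteases, was at 16.3 ± 1.39 (SD, n = 3) and 12.9 ± 1.12 (-0.32 ± 0.11, limma adjusted p = 0.0553), and it was called lower without ex vivo library 1 (0.0253). Calr, a chaperone that binds myeloperoxidase precursors, fell from 526 ± 99.0 to 237 ± 16.2 (-1.13 ± 0.16, limma adjusted p = 0.000777), whereas its partner Canx was at 164 ± 19.3 and 188 ± 4.40 and was not called. Rab27a, which encodes a GTPase of granule release, fell (-0.89 ± 0.12, limma adjusted p = 0.000787), and Furin, a proprotein convertase gene, rose (1.11 ± 0.25, adjusted p = 0.0089). Unc13d fell (-0.34 ± 0.11, limma adjusted p = 0.0416), a call lost without ex vivo library 1 (0.0732), ex vivo library 3 (0.0756), ex vivo library 4 (0.0617), cCLP 2 (0.149) or cCLP 4 (0.0933).

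Of the 8 enzymes of haem synthesis, which supply the cofactor of myeloperoxidase, 5 were tested and 2 fell (median -0.30), with 1 tested only through the ex vivo libraries. Alas1, which encodes the first enzyme of the pathway, went from 26.6 ± 7.27 (SD, n = 3) to 11.3 ± 0.702 (-1.13 ± 0.19, limma adjusted p = 0.00225). Alad, the gene of the next enzyme, was at 25.8 ± 2.22 and 7.70 ± 1.77 and was below 10 in each of cCLP 2 to 4. Urod was at 27.0 ± 2.43 and 26.6 ± 2.33 and was not called.

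Serglycin acts through its sulphated chains, so the genes that build such chains were read too. Of 27 genes 8 were tested, 3 fell and 1 rose (median -0.14), 2 of them tested only through 1 group, and the others were below the minimum. Csgalnact2, which encodes an enzyme that starts chondroitin chains, was at 20.8, 32.2 and 29.1 in ex vivo libraries 1, 3 and 4, 23.9 in cCLP 1 and 3.32 or less in ex vivo library 2 and cCLP 2 to 4. Chsy1, a chain-extending enzyme gene, fell from 40.3 ± 3.13 (SD, n = 3) to 28.5 ± 4.55 (-0.50 ± 0.13, limma adjusted p = 0.0169), not without ex vivo library 4 (0.0502), cCLP 2 (0.0512) or cCLP 3 (0.0643). B4galt7, a linker enzyme gene, rose (0.44 ± 0.11, limma adjusted p = 0.0116), not without cCLP 4 (0.0598).

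Other inhibitor genes went both ways. Of 20 genes 6 were tested, 3 rose and 3 fell (median -0.22), 3 of them tested only through 1 group, and 10 were at 0 in every library. Serpinb6b, another intracellular serpin gene, was at 6.12, 9.92 and 6.54 in ex vivo libraries 1, 3 and 4, 5.74 in cCLP 1, and 26.3 to 32.6 in ex vivo library 2 and cCLP 2 to 4. Slpi, which encodes a secreted inhibitor of elastase, had 23.3, 48.4 and 52.3 in ex vivo libraries 1, 3 and 4, 36.3 in cCLP 1, and 0 in the other 4 libraries. Cst3, the cystatin C gene, fell from 320.0 ± 99.0 (SD, n = 3) to 164 ± 13.7 (-0.91 ± 0.23, limma adjusted p = 0.0144), not without ex vivo library 4 (0.0502) or cCLP 2 (0.058). Cstb rose (0.47 ± 0.14, limma adjusted p = 0.0235), not without ex vivo library 4 (0.0713), cCLP 3 (0.0854) or cCLP 4 (0.0772). Spint2 rose (0.88 ± 0.24, limma adjusted p = 0.0188), not without cCLP 2 (0.0719).

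The cathepsins that cystatins of this family can inhibit, and the protease legumain, were read beside Cst7. Of 8 genes 7 were tested, 4 fell and 2 rose (median -1.22), with 1 tested only through the ex vivo libraries. Ctsz fell from 141 ± 32.7 (SD, n = 3) to 19.0 ± 5.0 (-2.83 ± 0.23, limma adjusted p = 5.15e-05), and Ctss fell from 142 ± 19.8 to 54.5 ± 8.81 (-1.37 ± 0.15, adjusted p = 0.000173). Ctsb fell from 118 ± 22.4 to 49.6 ± 3.16 (-1.22 ± 0.14, limma adjusted p = 0.000303). Lgmn, which encodes the asparaginyl protease legumain, rose from 36.7 ± 5.32 to 146 ± 13.3 (1.97 ± 0.13, limma adjusted p = 1.22e-05), and Ctsl rose (0.86 ± 0.12, adjusted p = 0.000767). Ctsh was listed at 0 in ex vivo library 2 and cCLP 2 to 4, the 4 libraries where Ctsg was at 0.

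Of 12 genes of later granules 5 were tested, 4 fell and 1 rose, and the 4 that fell entered only through the ex vivo libraries. Camp, the cathelicidin gene of secondary granules, was at 51.4, 65.7 and 51.6 in ex vivo libraries 1, 3 and 4, 13.4 in cCLP 1 and 0 elsewhere. Cyba, an oxidase subunit gene, rose from 108 ± 11.8 (SD, n = 3) to 181 ± 14.0 (0.74 ± 0.12, limma adjusted p = 0.00152). Over the 8 libraries as labelled, limma called 0 genes in each of these lists.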

How the data were processed

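Stranded total RNA libraries were prepared after ribosomal RNA depletion, per the labels' protocols. TopHat2, Bowtie2 and HTSeq 1.0.6 with GRCm38 (mm10) are named in the submitters' processing notes, while their roles, the strand setting and any scaling are not given in the sources used here. The deposited value is a score, a whole number per gene. Between cCLP 3 and 4 the dispersion index averaged 0.260 over 6793 genes of mean 5 to 50, below the value of about 1 for read counts, so no count model was used and depth is unknown.

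Each library's factor came from a trimmed mean of log ratios (30% of ratios and 5% of levels trimmed). Genes whose scaled value was 10 or more in a number of libraries equal to the smaller group's size were fitted on log2(scaled value + 1) with limma 3.58.1 in R 4.3.3 (trend, robust), two-sided, with Benjamini-Hochberg adjustment over all genes tested; adjusted p below 0.05 was called. The fit was tested on simulated data. Symbols and positions came from GENCODE vM21 (37607 of 39179 IDs matched). The members, lists and the choice of 6 libraries were made with earlier results of these data known. Named list genes were, per list, those called with the largest rise and fall and those called that averaged at least 10 in both groups; Prss57, Cebpa, Cebpe, Ctsc, Canx, Ctsd and Urod, the marker genes and some neighbours were added after their values were seen. Some list genes that this rule names are not reported here. Protein features were not analysed here.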

Additional observations from a re-analysis of the deposited data

Results flagged for a closer look

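In 16 groups of 4 libraries (8 genes in each labelled group), a library stood far from the other 3 in 8 cases, by a gap to its nearest neighbour that, as a share of the group's range, was above Dixon's 95% critical value for 4 samples. The genes were chosen on these same values and the groups share the same libraries, so the 8 cases cannot be set against a chance rate. In cCLPs the library was cCLP 1 each time. It had Mpo at 753 against 258 to 288 in the others, Elane at 38.3 against 0, Prtn3 at 175 against 0.849 to 1.05, Ctsg at 339 against 0, Ms4a3 at 5.74 against 0 and Cst7 at 108 against 22.1 to 36.5. In ex vivo CLPs the library was ex vivo CLP 2, with Cst7 at 27.6 against 103 to 117 and Serpinb1a at 218 against 138. These 2 libraries lie with the other group over all genes as well.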

How the results depend on the processing

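Over the 8 libraries, 0 genes were called under all 17 alternatives, which were other scalings, filters and added constants, protein-coding genes only, a replicate block and leaving out each library. Over the 6 libraries 1369 genes were higher and 1462 lower. Without a filter on low values, which raised the genes tested from 6573 to 13755, the numbers were 2230 and 2770. Leaving out 1 library gave 887 (without cCLP 4) to 1560 higher and 1192 to 1743 lower, and the cause of the lower number was not tested. Of 119 member fold changes recomputed over the 8 libraries and 75 over the 6, 0 changed sign. The difference in the log2 ratio of Mpo to Srgn over the 8 libraries ran from -0.69 to 0.16 with 1 library left out, and changed sign without ex vivo CLP 3 (0.0079) or ex vivo CLP 4 (0.16). For Elane, the 8-library log2 fold change ran from -5.60 to -2.73. Prtn3 ran from -7.04 to -4.74 over the 6 libraries.

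Equal replicate numbers were not taken to pair libraries, because nothing in the sources used here says that they do. Correlations of deviations from the labelled group means, between libraries of the same number, were 0.595, 0.843, -0.575 and -0.86. By this measure 1 of 4 ex vivo libraries correlated best with its own number. Ex vivo CLP 2 and cCLP 1 lie with the other group and shape these deviations, so the correlations cannot show whether numbers pair libraries. With a replicate block 0 genes were called over the 8 libraries, and 1220 were higher and 1277 lower over the 6. Over the 6 libraries only ex vivo CLP 3 and 4 and cCLP 3 and 4 share a number across the groups. The group difference in that block fit rests on these libraries, so it cannot show what pairing does. In that fit the calls for Unc13d (limma adjusted p = 0.38), B4galt7 (0.0718), Vps26a (0.0582) and Cbfb (0.216) were lost. Scaling by the upper quartile or by the sum of values also ended the calls for Unc13d (0.0621 and 0.0806) and Cbfb (0.0572 and 0.0533). Depth is unknown, so a gene listed at 0 has no detection limit.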
